A study of Homo sapiens with 10 samples.

Results

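The SOCS, CISH and PIM genes are 7 genes that STAT5 is known to switch on, here SOCS1, SOCS2, SOCS3, CISH, PIM1, PIM2 and PIM3. They were listed by name, with earlier results of these data known, and the rule itself used no measured value. All 7 were found by Ensembl identifier among the 59204 human genes listed. K562 cells, an established human leukemia line driven by the BCR-ABL kinase, were fed 30 µM 4-thiouridine for 12 h, with the medium renewed every 3 h, and washed. They were then kept in 3 mM uridine with 1 µM AZ-5576, a CDK9 inhibitor, with 1 µM JQ1, which blocks BET bromodomain proteins, or with DMSO alone. Cells were harvested after 2, 4 and 8 h of each treatment and at 0 h, which gave 10 libraries, 1 for each condition, with the 0 h library shared by the 3 arms. All libraries, controls included, carry the thiouridine pulse and the same line, so each arm is a time course of 1 culture per time as far as the labels tell, and p-values below measure the spread of libraries around a fitted line or level.

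BCR-ABL keeps STAT5 phosphorylated without a cytokine, and STAT5 dimers bind DNA and drive transcription of their own inhibitors. SOCS proteins and CISH, products of those genes, bind phosphorylated receptors or JAK kinases through an SH2 domain and recruit a ubiquitin ligase through the SOCS box. PIM kinases, also STAT5 targets, are active as soon as they are made, so that their amount follows their RNA closely, and they promote survival and translation of leukemic cells. CDK9 releases paused RNA polymerase II, and BET proteins bring it to acetylated chromatin.

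The promoter sequence of CISH is shown because it was the member window that held the letters bound by STAT dimers, TTCNNNGAA, which read the same on both strands. RefSeq windows from 250 bases before to 50 bases after the start were matched for 6 members, of which CISH had 4 matches, at 241, 230, 129 and 112 bases before the start. SOCS1, SOCS3, PIM1, PIM2 and PIM3 had none in their windows, and SOCS2 had no window here. Of 35116 promoter windows of this length, 7.66% held at least 1 match and 7 held 4 or more. The same letters with 4 bases between TTC and GAA, present in 6.44% of windows, were in none of the members' windows. The window lies on the minus strand at chr3:50611725-50612024 of GRCh38.p14, and capitals mark the 4 matches.
CISH promoter: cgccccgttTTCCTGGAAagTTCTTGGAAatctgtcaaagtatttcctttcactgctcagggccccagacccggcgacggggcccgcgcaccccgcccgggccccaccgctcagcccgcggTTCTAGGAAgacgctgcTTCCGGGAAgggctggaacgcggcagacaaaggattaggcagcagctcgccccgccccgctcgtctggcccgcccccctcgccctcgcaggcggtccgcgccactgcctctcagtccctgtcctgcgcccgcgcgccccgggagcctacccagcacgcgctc

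A stretch of each of 4 3′ UTRs is shown because the study followed labelled RNA after the wash. AU-rich elements built from ATTTA are known to shorten the life of an mRNA. On the transcript strand, GENCODE v29 3′ UTRs held 5 ATTTA matches in SOCS2, 4 in SOCS3, 3 in CISH, 5 in PIM1, 2 in PIM2 and 4 in PIM3, overlaps counted, and none in SOCS1. At least 1 match was found in 62.9% of 18841 protein-coding genes, with a median of 1.34 per kilobase. PIM3 was denser in ATTTA than 85.5% of genes and PIM1 than 81.8%. The longer TTATTTATT, held by 7.19% of genes, occurred 3 times in PIM1, 2 times in CISH, 1 time in SOCS2 and in no other member. The densest 30 bases are printed with ATTTA in capitals, for SOCS3 at chr17:78356829-78356858 (minus strand), CISH at chr3:50607094-50607123 (minus), PIM1 at chr6:37174986-37175015 (plus) and PIM2 at chrX:48913220-48913249 (minus), all in GRCh38.
SOCS3: ctttgcacatATTTAtATTTAtattcagaa
CISH: ttatacactATTTATTTATTTAttctcctt
PIM1: gttatgtATTTATTTATTTATTTAtttggt
PIM2: tcctgcctggattATTTAaaaagccatgtg

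Reads were counted per gene from the 3′ ends of transcripts, in one table of all reads and one of the reads the submitters call nascent, named labelled here. Total human reads ran from 10293371 to 16008906 per library, labelled reads from 2031796 to 3868420, and reads of the fly RNA added to each sample at 5% from 1208073 to 2366155. Levels are given as reads per 1000000 fly reads, called fly-normalised reads. The fly RNA was added to purified RNA, so levels are relative to RNA mass, and in a bulk culture fewer cells of a kind and less RNA per cell cannot be told apart. All 11 erythroid markers that define K562 were found, with a summed level of 85231 to 128636 in AZ-5576, 83745 to 92858 in JQ1 and 88918 to 110028 in DMSO. Of 13 markers of other cell types KRT5, KRT14 and MYOD1 were at 0 in all libraries, 7 with these included stayed under 10 reads, and the epithelial gene EPCAM reached 902 reads. Their summed level was 382 to 594 in AZ-5576, 402 to 598 in JQ1 and 574 to 690 in DMSO, and its part in the results was not tested.

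**Figure D1:**
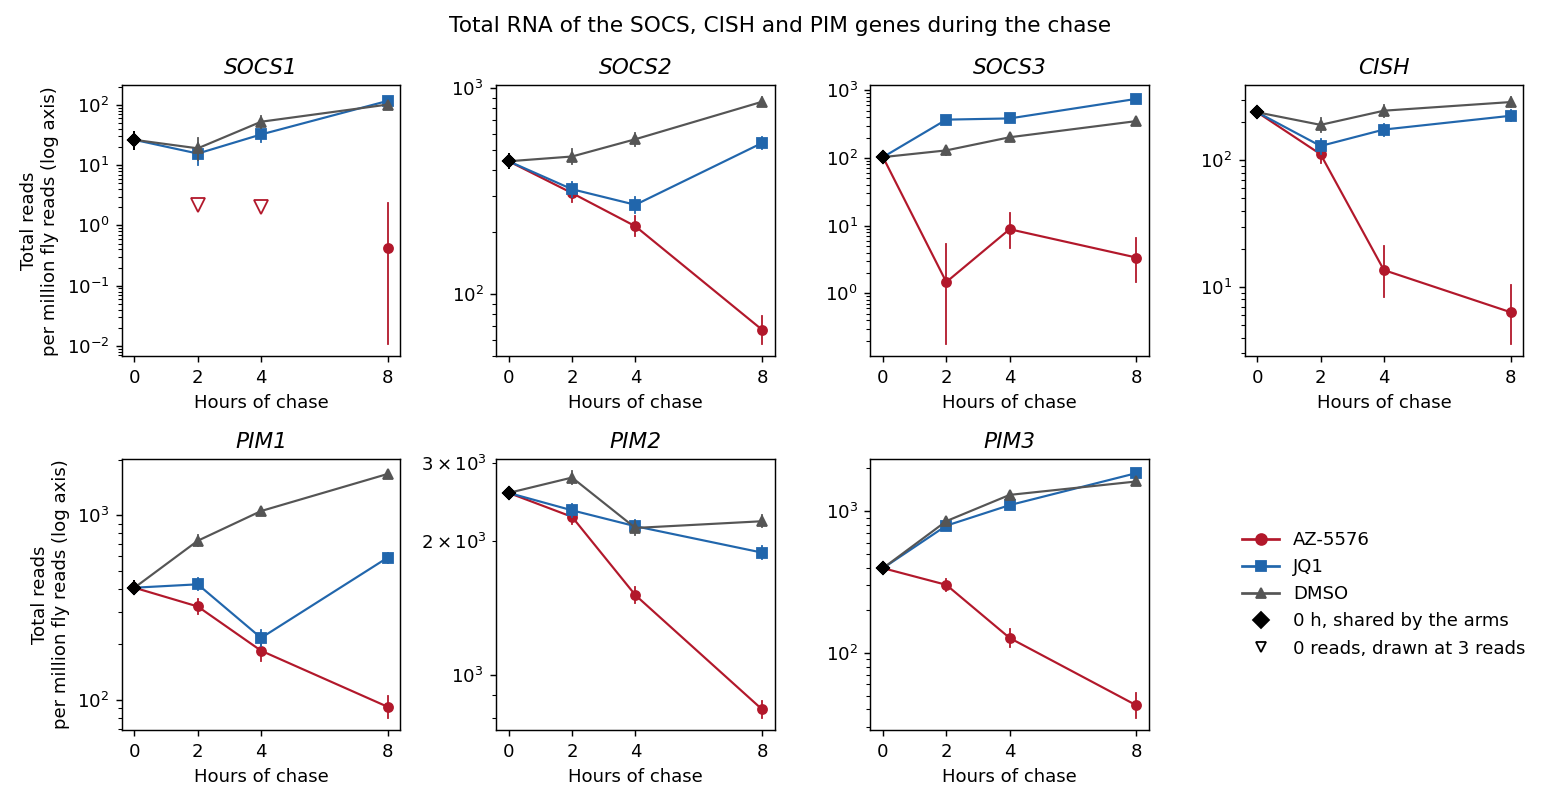
Total fly-normalised reads (log axis) of each gene against hours of chase, with 1 library per point, exact 95% counting intervals as bars and the shared 0 h library as a black diamond. AZ-5576 lies below DMSO at 2, 4 and 8 h for all 7 genes, and SOCS3 in JQ1 lies above DMSO at all 3 times.

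Over 8 h in DMSO, a rise of total RNA passed the threshold for PIM1, PIM3, SOCS1 and SOCS2. PIM1, a kinase of short life, had 727, 1052 and 1671 total fly-normalised reads at 2, 4 and 8 h in DMSO, against 405 at 0 h. PIM3, the family member linked to growth in epithelial cancers, had 850, 1302 and 1619, against 396 at 0 h. At 8 h PIM1 was at 4.13 times its 0 h level (exact 95% interval 3.78 to 4.52) and PIM3 at 4.09 times (3.74 to 4.47), where the median of all tested genes was a log2 ratio of 0.51. SOCS1, which inhibits JAK kinases directly, had 19.0, 52.6 and 102, against 26.4 at 0 h, and SOCS2, known as a brake on growth hormone signalling, had 467, 566 and 861, against 443 at 0 h. The 4 and 8 h DMSO libraries lay above 0 h for all 4 genes.

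In log2 units per hour, the slopes in DMSO were 0.28 for PIM1 (SE 0.04, adjusted p = 5.43e-05), 0.23 for PIM3 (SE 0.03, adjusted p = 5.73e-05), 0.36 for SOCS1 (SE 0.08, adjusted p = 0.00165) and 0.14 for SOCS2 (SE 0.04, adjusted p = 0.00724). These came from edgeR's quasi-likelihood fit of straight lines from the 0 h library with fly totals as library sizes, adjusted over all 11797 genes tested, of which 24.5% rose by the same rule. SOCS3, an inhibitor of receptors that signal through gp130, had a slope of 0.20 (adjusted p = 0.0524). At 8 h in DMSO it was at 3.40 times its 0 h level (2.84 to 4.09). CISH, an inhibitor induced by STAT5 itself, had a slope of 0.07 (adjusted p = 0.275). PIM2, a PIM kinase known for supporting survival of blood cells, had −0.04 (adjusted p = 0.230), and with TMM scaling to human genes −0.08 (adjusted p = 0.00193). Without the DMSO 8 h library SOCS1 had an adjusted p of 0.143 and SOCS2 of 0.407, while PIM1 and PIM3 still passed. SOCS3 passed without AZ-5576 2 h (adjusted p = 0.0211), JQ1 2 h (0.00759), JQ1 4 h (0.0312) or JQ1 8 h (0.00840), and SOCS1 missed the threshold with DESeq2 (0.0557).

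Under AZ-5576 SOCS1 and SOCS3 were nearly lost within 2 h. SOCS1 had 0, 0 and 1 total reads in AZ-5576 at 2, 4 and 8 h, 25, 59 and 204 in JQ1, 23, 72 and 179 in DMSO and 39 at 0 h. A count of 0 was taken to allow at most 3 reads per library, and the DMSO counts were taken as exact. On that reckoning SOCS1 was at least 8.64-fold lower than DMSO at 2 h and at least 25.8-fold lower at 4 h. The exact counting intervals, which include the counting error of DMSO, reached up to 15.4% of DMSO at 2 h and 4.90% at 4 h. Over the 3 times together, 1 read stood against 274, a 328-fold lower level with a counting interval of 58.4 to 13004. No AZ-5576 library came near a DMSO library.

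SOCS3 had 2, 13 and 8 total reads in AZ-5576, against 156, 276 and 616 in DMSO and 152 at 0 h. Its fly-normalised levels were 1.47, 8.85 and 3.38 in AZ-5576, against 129, 202 and 349 in DMSO. Relative to DMSO the SOCS3 ratio was 0.0114 after 2 h (exact 95% interval 0.00137 to 0.0418), 0.0439 after 4 h and 0.00968 after 8 h (0.00416 to 0.0192). The lowest fly-normalised level came at the first time measured and the lowest ratio to DMSO at 8 h. The AZ-5576 2 and 8 h levels did not differ beyond counting error.

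CISH followed later and SOCS2 more slowly. CISH had 152, 20 and 15 total reads in AZ-5576, against 230, 337 and 508 in DMSO and 354 at 0 h. At 2 h CISH was still at 58.6% of DMSO (47.5% to 72.3%), and by 4 h it was at 5.53% (3.34% to 8.68%) and by 8 h at 2.20% (1.22% to 3.66%). SOCS2 had fly-normalised levels of 310, 214 and 67.2 in AZ-5576, against 467, 566 and 861 in DMSO, or 66.4%, 37.8% and 7.80% of DMSO. AZ-5576 libraries lay below DMSO libraries at every time for both genes.

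Among the kinase genes PIM3 and PIM1 had the lower levels relative to DMSO, and PIM2 kept more of its RNA. PIM3 had 302, 127 and 42.7 total fly-normalised reads in AZ-5576, against 850, 1302 and 1619 in DMSO, or 35.5%, 9.78% and 2.64% of DMSO. PIM1 had 320, 185 and 91.7 in AZ-5576, against 727, 1052 and 1671 in DMSO, or 44.1%, 17.5% and 5.49% of DMSO. Part of these ratios is the climb of DMSO: relative to 0 h, AZ-5576 at 8 h was at 10.8% for PIM3 (8.64% to 13.3%) and 22.7% for PIM1 (19.3% to 26.5%). PIM2 had 2269, 1513 and 837 in AZ-5576, against 2781, 2142 and 2218 in DMSO, or 81.6%, 70.6% and 37.7% of DMSO (35.7% to 39.9% at 8 h). The median log2 ratio of all tested genes at 8 h was −1.63, and that of PIM2 was −1.41.

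Tested over the 3 times together, 4 of the 7 genes fell under AZ-5576, against 2.38% of 11797 genes. The fit took time as levels with 1 term per inhibitor, so a value is 1 fitted log2 difference common to 2, 4 and 8 h. It is not the mean of the 3 ratios, and a difference that grew with time counted as spread around it. PIM3 changed by −3.05 (SE 0.67, adjusted p = 0.0485) and PIM1 changed by −2.52 (SE 0.54, adjusted p = 0.0465), beside SOCS3 (SE 0.58, adjusted p = 0.00742) and SOCS1 (adjusted p = 0.00391), whose fitted change of −8.10 depends on the prior count and is no bound. CISH at −2.99 (SE 0.90, adjusted p = 0.0576), SOCS2 at −1.67 (SE 0.56, adjusted p = 0.0655) and PIM2 at −0.71 (SE 0.25, adjusted p = 0.0716) did not pass. The median of the 7 genes was −2.99 and that of all genes tested −0.82.

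How many members passed depended on the fit. Slopes over hours called all 7 lower, where 73.3% of all genes were called lower, and a fit of the 2 arms alone called 6, all but PIM2, where 14.4% were. DESeq2 also called all but PIM2, with CISH at an adjusted p of 1.75e-04 and SOCS2 at 0.00632, where 4162 of 11797 genes were called lower. TMM scaling, under which the median over all genes was −0.08 and 2.32% passed as lower, called the same 4 members, at −7.05 for SOCS1, −4.77 for SOCS3, −2.43 for PIM3 and −1.85 for PIM1, and placed PIM2 at 0.04. SOCS1 passed whichever of the 10 libraries was left out. SOCS3 missed the threshold without DMSO 4 h (adjusted p = 0.0592) or DMSO 8 h (0.0831). PIM1 and PIM3 missed it without AZ-5576 4 h (0.197 for both), JQ1 4 h (0.0833 and 0.0922), DMSO 4 h (0.204 for both) or DMSO 8 h (0.256 for both), and PIM1 also without JQ1 2 h (0.0546). CISH passed without AZ-5576 2 h, at −4.81 (adjusted p = 3.08e-05), AZ-5576 8 h (0.0426), JQ1 8 h (0.0269) or DMSO 2 h (0.0434). SOCS2 passed without AZ-5576 2 h (0.00258), AZ-5576 8 h (0.0254) or JQ1 8 h (0.0328), and PIM2 without AZ-5576 2 h (0.00471). With that library left out, 6815 of 11840 genes were called lower.

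**Figure D2:**
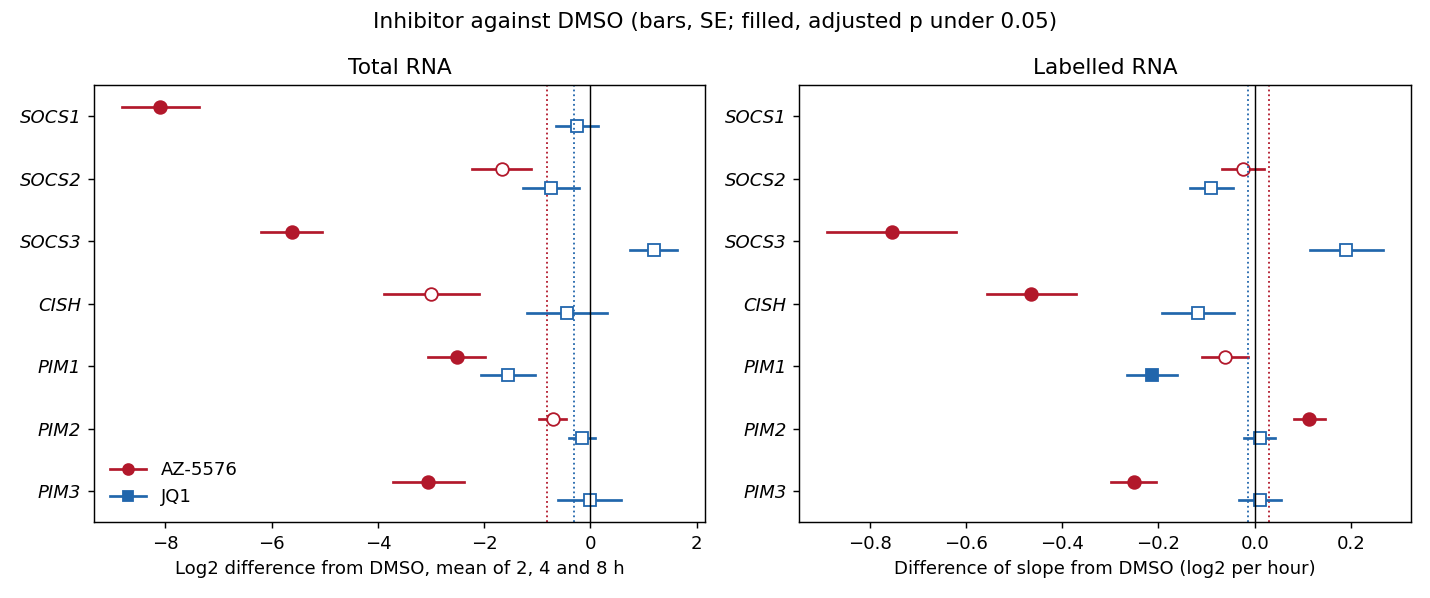
Differences from DMSO for AZ-5576 (circles) and JQ1 (squares). On the left is the fitted log2 difference of total RNA common to 2, 4 and 8 h, named a mean on the axis. On the right is the difference of labelled RNA slope in log2 per hour. Bars are SE, filled symbols have an adjusted p under 0.05, and dotted lines are the medians of all genes tested. For AZ-5576 and JQ1 these are at −0.82 and −0.31 on the left and at 0.03 and −0.01 on the right. SOCS3 lies left of 0 in AZ-5576 and right of 0 in JQ1 on both sides, and SOCS1 was not tested on the right.

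Under JQ1 the members separated: SOCS3 was above DMSO and PIM1 and SOCS2 were below it. CISH was below DMSO by log2 ratios of −0.55, −0.49 and −0.36 at 2, 4 and 8 h. Over the 3 times together SOCS1, PIM2 and PIM3 lay closer to DMSO. The median log2 ratio of all tested genes to DMSO was itself −0.33, −0.29 and −0.31 at 2, 4 and 8 h. The lower quartile of all tested genes was −0.55, −0.59 and −0.72, so CISH lay near the general shift. SOCS3 had 589, 698 and 1299 total reads in JQ1, against 156, 276 and 616 in DMSO. Fly-normalised, JQ1 was at 2.84 times DMSO at 2 h (exact 95% interval 2.38 to 3.42), 1.90 times at 4 h (1.65 to 2.19) and 2.13 times at 8 h (1.93 to 2.35). The JQ1 2 h and 4 h levels, 367 and 383, did not differ beyond counting error, and JQ1 8 h, at 744, was the top SOCS3 level of all 10 libraries. CISH, which acts on the same receptors as STAT5, had 130, 175 and 224 in JQ1, against 190, 246 and 288 in DMSO. That was 68.1%, 71.0% and 77.9% of DMSO for CISH, and PIM2 was at 84.4%, 101% and 85.0%.

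PIM1 had 422, 217 and 589 total fly-normalised reads in JQ1, against 727, 1052 and 1671 in DMSO, or 58.1%, 20.6% and 35.3% of DMSO. The lowest JQ1 level was at 4 h, at 53.5% of the 0 h level (47.0% to 60.8%), and by 8 h PIM1 stood at 146% of 0 h (132% to 161%). SOCS2 had its low at the same time, with 324, 272 and 543 in JQ1, against 467, 566 and 861 in DMSO, or 69.3%, 48.0% and 63.0% of DMSO. The JQ1 2 h level of SOCS2 and the AZ-5576 2 h level, 310, did not differ beyond counting error. PIM3 had 790, 1102 and 1853 in JQ1, against 850, 1302 and 1619 in DMSO, all above the 0 h level of 396. SOCS1 in JQ1 was at 61.5% of DMSO at 4 h (42.8% to 87.9%) and at 115% at 8 h (93.7% to 141%).

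In the fit over all 3 arms 0 of 7 members and 0% of 11797 genes passed for JQ1 against DMSO by edgeR's quasi-likelihood test, although 1081 genes had an unadjusted p under 0.05, and DESeq2 called 71 genes and no member. The differences were −1.56 for PIM1 (SE 0.51, adjusted p = 0.508), 1.19 for SOCS3 (SE 0.44, adjusted p = 0.524) and −0.75 for SOCS2 (SE 0.52, adjusted p = 0.623). That fit shares 1 estimate of the spread over all arms. With JQ1 and DMSO fitted alone, SOCS3 rose by 1.17 (SE 0.17, adjusted p = 0.00516), 1 of 7 members, against 1.75% of genes called higher. PIM1 fell by 1.52 (SE 0.23, adjusted p = 0.00579) and SOCS2 by 0.75 (SE 0.15, adjusted p = 0.0124). Those 2 of 7 members lie near the 20.6% of all genes called lower in that fit. The same 3 genes passed in the fit of all arms when the AZ-5576 8 h library was left out, with adjusted p of 0.0300 for SOCS3, 0.0128 for PIM1 and 0.0450 for SOCS2, where 737 of 11831 genes were called lower and 110 higher. As slopes over hours, PIM1 (−0.25, adjusted p = 5.61e-04) and SOCS2 (−0.12, adjusted p = 0.0453) passed, and SOCS3 did not (0.20, adjusted p = 0.108). These 2 of 7 members are again near the share of all genes called lower, 16.2%.

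Compared directly, SOCS1 and SOCS3 were lower in AZ-5576 than in JQ1, 2 of 7 members against 1.17% of genes. SOCS3 differed by −6.82 (SE 0.60, adjusted p = 0.00164), which was 23 reads over the 3 times in AZ-5576 against 2586 in JQ1. SOCS1 had 1 read against 288 (adjusted p = 0.00164). Both passed whichever library was left out. PIM3 at −3.03 had an adjusted p of 0.0617 and CISH at −2.55 one of 0.174. PIM1, the member furthest below DMSO in JQ1, differed by −0.96 between the inhibitors (SE 0.51, adjusted p = 0.309): AZ-5576 was at 75.9% of JQ1 at 2 h, 85.2% at 4 h and 15.6% at 8 h. By slopes over hours all 7 were lower in AZ-5576, where 55% of genes were, and PIM3 also passed with TMM scaling (−2.71, adjusted p = 0.0165, against 4.82% of genes called lower). Without AZ-5576 2 h all 7 passed, with adjusted p from 8.46e-06 for SOCS3 to 0.0289 for SOCS2, where 3758 of 11840 genes were called lower, and PIM3 also passed without AZ-5576 8 h (0.00558), JQ1 2 h (0.0453) or DMSO 2 h (0.0283). DESeq2 called CISH (0.00227) and PIM3 (3.90e-06) as well, where 1203 of 11797 genes were called lower.

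**Figure D3:**
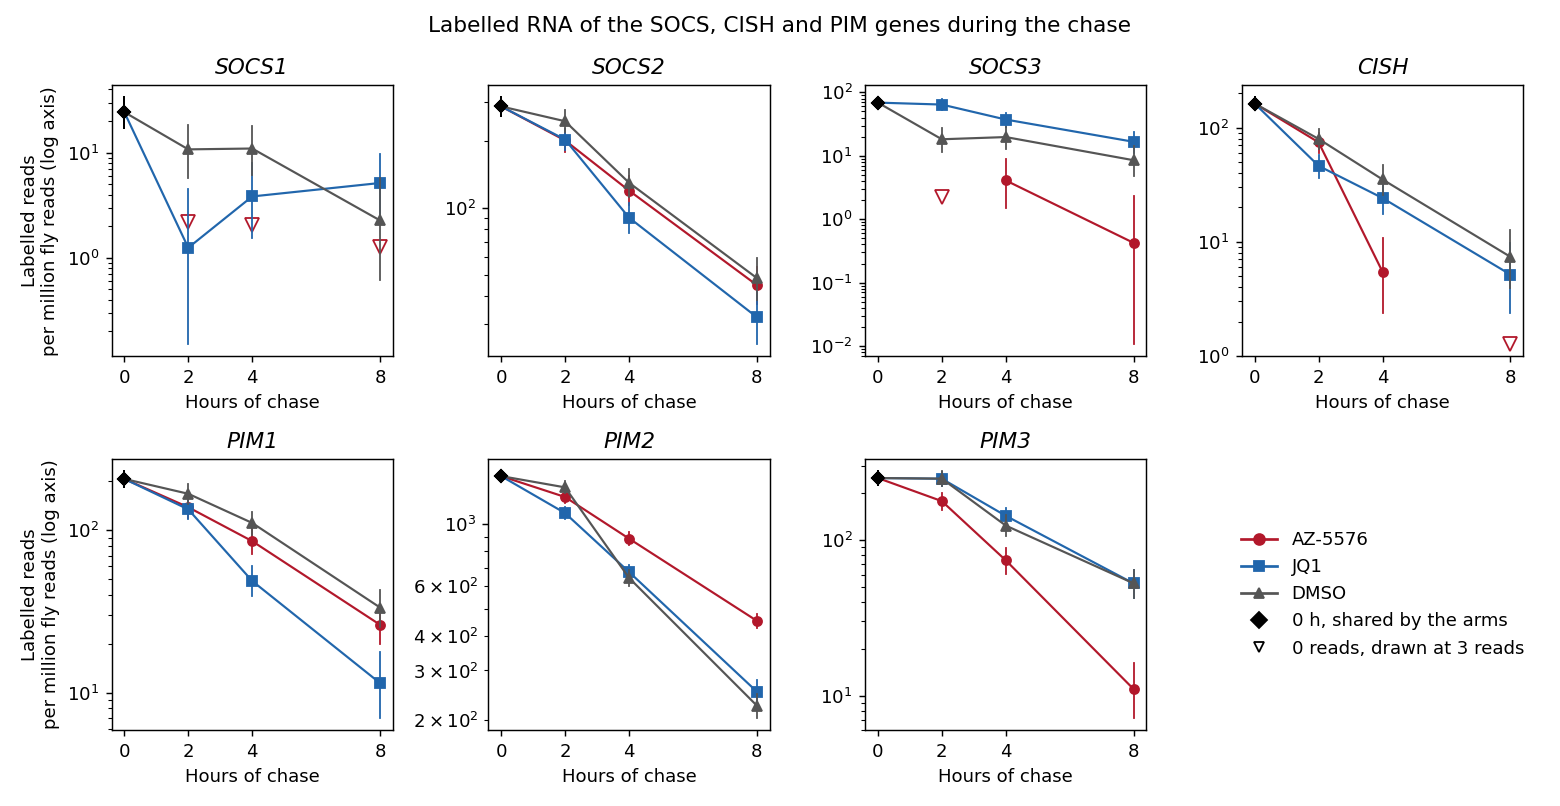
Labelled fly-normalised reads (log axis) of each gene against hours of chase, with 1 library per point, exact 95% counting intervals as bars, and white triangles at 3 reads for libraries with 0 labelled reads. PIM1 is lowest in JQ1 at 4 and 8 h, PIM2 is highest in AZ-5576 at 4 and 8 h, and SOCS3 is highest in JQ1 from 2 h on.

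Labelled RNA, which carries thiouridine of the pulse, had its steepest fall in DMSO for CISH. The slope of CISH labelled RNA in DMSO was −0.58 log2 units per hour (SE 0.06), a half-life of 1.73 h, and 1.92% of 8817 genes tested had a lower one. The other 5 tested members had half-lives of 2.74 to 2.94 h in DMSO, against 4.49 h for the median gene. SOCS1, with a mean of 8.6 labelled reads, was under the minimum of 20 and was not tested. It had 0, 0 and 0 labelled reads in AZ-5576, 2, 7 and 9 in JQ1, 13, 15 and 4 in DMSO and 36 at 0 h. With a minimum of 5 reads SOCS1 was tested, and its slope was lower in AZ-5576 than in DMSO (adjusted p = 3.32e-04) and than in JQ1 (adjusted p = 3.39e-04), with fitted sizes that depend on the prior count. These half-lives come from a straight line through 0, 2, 4 and 8 h, and several members fell little in the first 2 h. PIM3 was at 99.1% of its 0 h labelled level at 2 h in DMSO and at 21.0% at 8 h. SOCS3 was the reverse, with 18.2, 19.7 and 8.51 labelled fly-normalised reads at 2, 4 and 8 h in DMSO, against 68.9 at 0 h. The median labelled log2 ratio of all tested genes at 2 h in DMSO against 0 h was 0.09. Whether labelled RNA was still made after the wash was not tested. Slopes and half-lives therefore describe the labelled level and are not measured rates of decay.

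Under AZ-5576 the labelled level of SOCS3, CISH and PIM3 fell faster than in DMSO, and that of PIM2 more slowly. SOCS3 had 0, 6 and 1 labelled reads in AZ-5576, against 22, 27 and 15 in DMSO and 102 at 0 h. The count of 0 was taken as 3 reads and the 0 h count as exact. SOCS3 labelled RNA in AZ-5576 at 2 h was then at least 31.3-fold below 0 h. The exact counting interval, which includes the counting error of 0 h, reached up to 4.00% of the 0 h level. The later counts of 6 and 1 give no rate of further loss, so no half-life is given. The fitted slope was −1.12 in AZ-5576 against −0.36 in DMSO, and the difference was −0.75 (SE 0.13, adjusted p = 1.28e-05). CISH had 101, 8 and 0 labelled reads, against 96, 48 and 13 in DMSO and 240 at 0 h, and a fitted slope of −1.04 against −0.58, with the 8 h count of 0 in the AZ-5576 line (difference −0.46, SE 0.09, adjusted p = 1.63e-04). At 2 h the CISH libraries did not differ in labelled level beyond counting error, with AZ-5576 at 93.4% of DMSO (69.9% to 125%), and at 4 h AZ-5576 was at 15.5% (6.35% to 33.1%).

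PIM3 had 243, 109 and 26 labelled reads in AZ-5576, against 301, 170 and 93 in DMSO, and a half-life of 1.67 h against 2.89 h (difference −0.25, SE 0.05, adjusted p = 5.41e-05). PIM2 went the other way, with 1706, 1306 and 1069 labelled reads in AZ-5576, against 1639, 881 and 396 in DMSO. All tested genes leaned the same way as PIM2, with a median slope difference of 0.03. Their median labelled log2 ratio of AZ-5576 to DMSO at 8 h was 0.27. At 8 h labelled PIM2 RNA in AZ-5576 was at 2.01 times DMSO (1.79 to 2.26), its half-life was 4.01 h against 2.75 h, and the difference of slopes was 0.11 (SE 0.03, adjusted p = 0.0174). PIM1 and SOCS2 gave −0.06 (SE 0.05) and −0.02 (SE 0.04), with adjusted p of 0.551 and 0.825. For SOCS2 the labelled level in AZ-5576 was at 92.1% of DMSO at 4 h (74.4% to 114%) and 92.9% at 8 h (69.2% to 125%), beside total levels of 37.8% and 7.80%.

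Of 6 tested members, 3 were thus called lower, against 1.22% of 8817 genes, and 1 higher, against 3.53%. SOCS3 passed whichever library was left out, with the difference between −1.36, when AZ-5576 4 h was dropped, and −0.53, when AZ-5576 2 h was, but not with DESeq2 (adjusted p = 0.175). CISH missed the threshold without AZ-5576 8 h (0.154) and PIM3 without AZ-5576 8 h (0.537) or DMSO 8 h (0.0942). PIM2 missed it without AZ-5576 4 h (0.0594), AZ-5576 8 h (0.712), DMSO 4 h (0.0649) or DMSO 8 h, where its adjusted p rounds to 1, and in the fit of the 2 arms alone (0.0772). With 0, 2 and 4 h alone, SOCS3 was the one member to pass (−0.85, adjusted p = 0.0263).

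Under JQ1 the labelled level of PIM1 fell faster than in DMSO, the 1 call of 6 tested members, against 0.352% of 8817 genes called lower. PIM1 had 216, 89 and 20 labelled reads in JQ1, against 203, 152 and 59 in DMSO and 307 at 0 h. Relative to DMSO, labelled PIM1 in JQ1 stood at 80.2% after 2 h, 43.9% after 4 h (33.4% to 57.4%) and 34.2% after 8 h (19.5% to 57.7%), with a half-life of 1.79 h against 2.91 h and a slope difference of −0.21 (SE 0.05, adjusted p = 0.0120). The call was lost without JQ1 4 h (adjusted p = 0.126), JQ1 8 h (0.958), DMSO 4 h (0.0901) or DMSO 8 h (0.195), with the difference between −0.20 and −0.27 in all of these. The SOCS3 difference, 0.19 (SE 0.08), did not pass (adjusted p = 0.371), although labelled SOCS3 RNA in JQ1 was at 3.53 times DMSO at 2 h (2.21 to 5.87). At that time JQ1 held 93.2% of the 0 h labelled level of SOCS3 (70.2% to 124%), while DMSO held 26.4% (15.9% to 42.2%).

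Between the inhibitors, the slopes of SOCS3 (−0.95, SE 0.12, adjusted p = 9.83e-12), PIM3 (−0.26, SE 0.05, adjusted p = 1.11e-05) and CISH (−0.35, SE 0.10, adjusted p = 0.0160) were lower in AZ-5576 than in JQ1, where 1.03% of genes were called lower. PIM2 was higher, at 0.10 (SE 0.03, adjusted p = 0.0279, against 4.53% of genes), and missed the threshold with TMM scaling (0.0549). The median difference of all tested genes was 0.05. Labelled PIM1 RNA was at 1.76 times the JQ1 level in AZ-5576 at 4 h (1.33 to 2.33) and 2.29 times at 8 h (1.36 to 4.00), with a slope difference of 0.15 (SE 0.05, adjusted p = 0.0577). It passed with fly size factors (0.0384), with DESeq2 (0.0415) and with the 2 arms alone (0.0491, against 5.6% of genes called higher), and also without 0 h (0.0149) or DMSO 2 h (0.0415). CISH missed the threshold without AZ-5576 4 h (0.201), AZ-5576 8 h (0.492) or JQ1 8 h (0.862) and with DESeq2 (0.0544), PIM3 without AZ-5576 8 h (0.416), and PIM2 without any of AZ-5576 4 h, AZ-5576 8 h, JQ1 2 h, JQ1 4 h, JQ1 8 h and DMSO 4 h (0.0503 to 0.914).

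**Figure D4:**
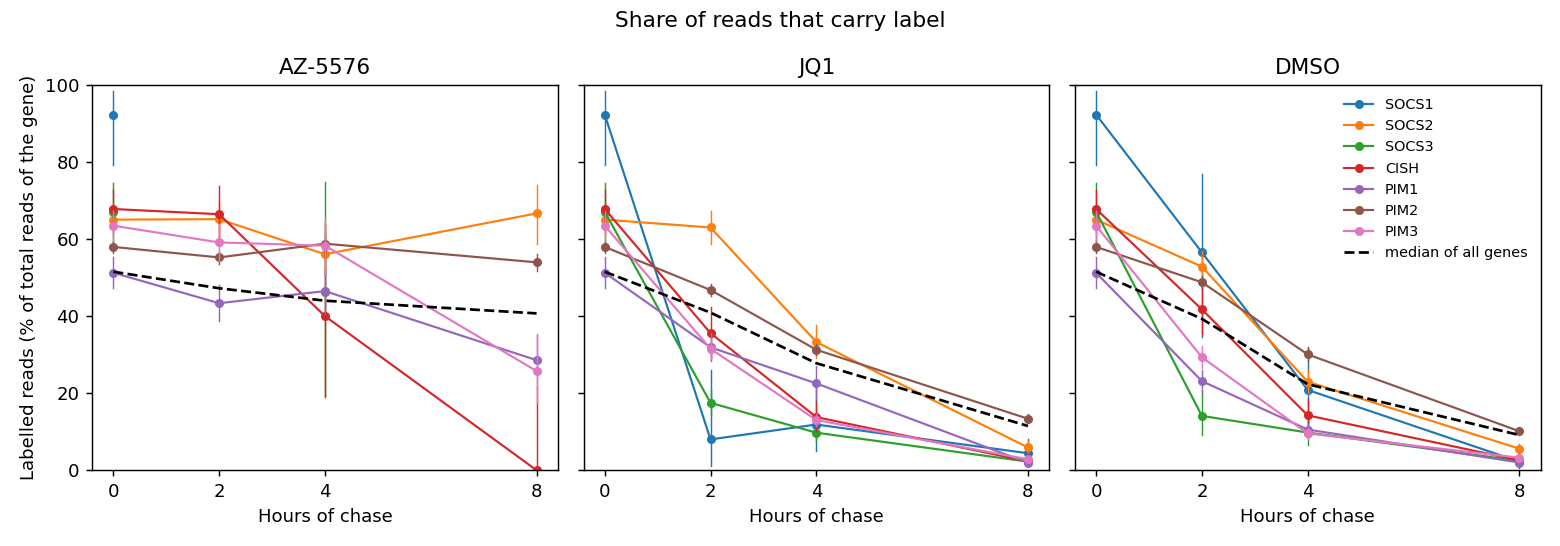
Labelled reads as a percentage of the total reads of each gene against hours of chase, in AZ-5576, JQ1 and DMSO, with exact 95% binomial intervals as bars and the median of all tested genes dashed. Libraries with under 10 total reads of the gene are not drawn. SOCS2 and PIM2 stay above 50% at 8 h in AZ-5576 and are at or under 13.4% in JQ1 and DMSO.

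After the 12 h pulse most reads of the members other than PIM1 carried label, and PIM1 was at the level of the median gene. The labelled share at 0 h was 92.3% for SOCS1 (exact 95% binomial interval 79.1% to 98.4%), 67.8% for CISH, 67.1% for SOCS3, 65.0% for SOCS2, 63.5% for PIM3, 58.0% for PIM2 and 51.3% for PIM1 (47.2% to 55.3%). The median gene had 51.5%, and 99.1% of 11787 genes had a lower share than SOCS1. For the other members that value ran from 49.4% for PIM1 to 81.4% for CISH. In AZ-5576 at 8 h the share was 28.6% for PIM1 (22.7% to 35.1%), 25.7% for PIM3 (17.6% to 35.4%), 54.0% for PIM2 and 66.7% for SOCS2 (58.8% to 73.9%), beside 40.7% for the median gene. In DMSO at 8 h it was 2.00% for PIM1, 3.26% for PIM3, 10.1% for PIM2 and 5.60% for SOCS2, beside 9.13% for the median gene. The share of SOCS2 in AZ-5576 at 8 h did not differ from that at 0 h beyond counting error.

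Reads without label are the other part of each total. Unlabelled PIM3 had 123, 53.1 and 31.7 fly-normalised reads in AZ-5576, against 601, 1177 and 1566 in DMSO and 145 at 0 h. In JQ1 unlabelled PIM3 was at 90.0%, 81.4% and 115% of DMSO at 2, 4 and 8 h. Unlabelled PIM1 was at 32.5%, 10.5% and 4.00% of DMSO in AZ-5576 and at 51.5%, 17.8% and 35.3% in JQ1. Unlabelled SOCS3 in JQ1 was at 8.97 times its 0 h level at 2 h (6.70 to 12.3), where DMSO was at 3.28 times (2.36 to 4.64). SOCS1 had 2 labelled reads of 25 in JQ1 at 2 h, against 13 of 23 in DMSO, or 8.00% (0.984% to 26.0%) against 56.5% (34.5% to 76.8%).

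The other genes of the pathway were taken from lists chosen with earlier results of these data known. Their counts, set beside the share of all genes, therefore describe the listed genes and are no test of the lists. In the fit of total RNA over the 3 times together, 2.38% of all genes were called lower under AZ-5576. Under AZ-5576 the 4 remaining SOCS genes, SOCS4, SOCS5, SOCS6 and SOCS7, gave 0 calls in total RNA with a median of −1.74, and all 4 were called by slopes over hours, where 73.3% of all genes were called lower. Of 16 tested JAK, STAT and receptor genes, 10 genes of BCR-ABL and its adaptors, 10 other negative regulators such as phosphatases and PIAS proteins, 9 PIM substrates or partners and 7 SOCS box partners, 0 passed. Their medians were −1.03, −1.36, −1.07, −0.58 and −0.49, beside −0.82 for all genes. Of 17 tested among 22 other genes known as STAT5 targets, 6 fell, against 2.38% of all genes, with a median of −2.48. DUSP5, a phosphatase of ERK, changed by −5.47 and the AP-1 subunit JUNB by −3.64 (adjusted p = 0.0165 and 0.00995). ID2, an inhibitor of differentiation factors, changed by −3.25 and the zinc finger factor EGR1 by −2.74 (adjusted p = 0.0486 and 0.0419). ID1 and MCL1 were the other 2.

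In labelled RNA under AZ-5576, ABL1, the kinase part of the fusion, had a lower slope than DMSO (−0.15, SE 0.04, adjusted p = 0.00977), as did JUNB (−0.33, adjusted p = 0.0157), ID2 (−0.32, adjusted p = 0.00990) and MYC, the driver of growth (−0.55, adjusted p = 3.58e-08). That was 1 of 8 tested BCR-ABL adaptor genes and 3 of 11 tested STAT5 targets, against 1.22% of all genes. Between the inhibitors, 5 of 11 tested STAT5 targets had lower and 2 higher slopes in AZ-5576, against 1.03% of all genes lower and 4.53% higher, led by EGR1 (−0.79, adjusted p = 5.46e-17), and ABL1 was lower (−0.17, adjusted p = 0.00165). That ABL1 call was 1 of 8 tested BCR-ABL adaptor genes. EPOR, the erythropoietin receptor, was higher in AZ-5576 (0.26, adjusted p = 0.0347), as was the SOCS box ligase subunit RNF7 (0.11, adjusted p = 0.0397). EPOR was 1 of 16 tested JAK, STAT and receptor genes, near the 4.53% of all genes called higher. RNF7 was 1 of 7 SOCS box partners, and the median difference of all tested genes was 0.05. Under JQ1 no listed gene passed in total RNA over all arms. With the 2 arms alone, 4 of 16 tested JAK, STAT and receptor genes fell, near the 20.6% of all genes called lower in that fit. STAT5A, the factor itself, changed by −1.32 (SE 0.30, adjusted p = 0.0165), IFNGR2, a chain of the interferon gamma receptor, by −1.62 (adjusted p = 0.00636), IFNAR1, a chain of the type I interferon receptor, by −1.12 (adjusted p = 0.00742), and STAT3, a relative of STAT5, by −0.56 (adjusted p = 0.0235). In the same fit 6 of 17 tested STAT5 targets fell and 3 rose, beside 20.6% of all genes lower and 1.75% higher. MYC changed by −1.70 (adjusted p = 0.00605), BCL2L1, which protects from apoptosis, by −1.29 (adjusted p = 0.00381), EGR1 by 1.47 (adjusted p = 0.0201) and FOS, an AP-1 subunit, by 1.52 (adjusted p = 0.0246). SOCS5 was the 1 of 4 other SOCS genes to pass, at −1.19 (adjusted p = 0.0198), also near that 20.6%. The slope of EGR1 labelled RNA was higher in JQ1 than in DMSO (0.46, SE 0.07, adjusted p = 2.33e-07).

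In DMSO over time, 8 of 16 tested JAK, STAT and receptor genes rose, among them JAK2 (0.21 log2 units per hour), STAT5A (0.18) and IFNAR2 (0.17), with adjusted p of 0.0119 or below, as did 7 of 10 BCR-ABL adaptor genes and 8 of 10 other negative regulators, against 24.5% of all genes. Of 17 tested STAT5 targets 7 rose, and of 4 other SOCS genes 2. Under the share of all genes lay PIM substrates or partners, with 1 of 9, and SOCS box partners, with 1 of 7. ABL1 had a slope of 0.23 (adjusted p = 4.53e-05) and PIAS1, an inhibitor of activated STAT proteins, one of 0.22 (adjusted p = 2.62e-04). By TMM scaling the share of all genes called higher in DMSO was 17% and that called lower 15.4%, against 24.5% and 3.78% with fly totals.

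The genes whose total profile over the 10 libraries lay closest to a member were found among 8203 genes with a mean of at least 100 reads, by root mean square distance of centred log2 levels. JUNB, IER5 and SERTAD1 were closest to SOCS3, at 1.23 to 1.37 log2 units, where the median gene was at 2.59. CEBPB, PPP1R15A and RNF146 were closest to PIM3 (0.28 to 0.33). KSR1, TOR1A and DOK1 were closest to SOCS2 (0.15 to 0.16), PARS2, MOCS3 and MRPL17 to CISH (0.25 to 0.27), and PURA, RAB5IF and NOL8 to PIM2 (0.08 to 0.10). SOCS1, with a mean of 60.2 reads, was not compared, and no member was among the 3 closest genes of another.

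The members lie on 7 chromosomes, and GENCODE v29 annotates each as a protein-coding gene. SOCS1 (ENSG00000185338) is on chromosome 16 at 11254405 to 11256200, SOCS3 (ENSG00000184557) on 17 at 78356778 to 78360077, CISH (ENSG00000114737) on 3 at 50606490 to 50611831 and PIM2 (ENSG00000102096) on X at 48913182 to 48919024, all on the minus strand of GRCh38. SOCS2 (ENSG00000120833) is on chromosome 12 at 93569814 to 93583487, PIM1 (ENSG00000137193) on 6 at 37170203 to 37175426 and PIM3 (ENSG00000198355) on 22 at 49960513 to 49964080, on the plus strand.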

How the data were processed

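Members and gene lists were chosen with earlier results of these data known. The deposited tables hold raw read counts per gene for all human reads, for human reads the authors call nascent (taken here as reads with thiouridine-derived conversions) and for fly reads. Per the labels' protocols, 4-thiouridine was alkylated, fly S2 RNA was added to purified RNA, and 3′-end libraries were sequenced. The submitters' processing notes name bedtools, Trim Galore 0.6.5 and, with no role given, bcl2fastq 2.17.1.14. The aligner, the counter and the rule for a nascent read are not given in the sources used here, and no use of molecular identifiers is stated, so intervals and floors cover counting error only.

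Counts were fitted with edgeR 4.0.16 (R 4.3.3, glmQLFit) over all genes with a mean of at least 20 reads, with fly totals as library sizes and Benjamini-Hochberg adjustment at 0.05: for total RNA, time as levels plus 1 term per inhibitor (4 residual degrees of freedom), and for labelled RNA and slopes, a common 0 h level and 1 line per arm (6). Steps were also run on simulated counts, with less spread than the total RNA fit by time levels (common coefficient of variation 0.36). No error rate for the results is drawn from that run. Alternatives were TMM, fly size factors, DESeq2 1.42.0, a minimum of 5 reads, slopes, 2 arms alone, 0 to 4 h and each library left out. Ratios between 2 libraries have exact conditional 95% intervals. Members and lists were all named, the latter by the 4 largest calls per list and comparison, with ID1, MCL1 and the genes of the 2-arm JQ1 fit named after their values were seen, and for members the 3 genes of closest profile; some genes that this rule names are not reported here. Promoters are RefSeq's (GRCh38.p14), UTRs the longest coding transcript's in GENCODE v29.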

Additional observations from a re-analysis of the deposited data

How the results depend on the processing

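No paired analysis was possible because each condition has 1 library and replicate numbers are only names. Genes passing for total RNA, AZ-5576 against DMSO, were 291 as reported, 4192 with DESeq2, 515 with a minimum of 5 reads, 8709 as slopes and 1705 with the 2 arms alone, with 4 members as reported, 6 with DESeq2 and 7 as slopes. JQ1 against DMSO gave 0 as reported, 4 with TMM, 71 with DESeq2, 2126 as slopes and 2680 with the 2 arms alone, with 2 members as slopes and 3 with the 2 arms alone. AZ-5576 against JQ1 gave 140 as reported, 608 with TMM, 1212 with DESeq2, 6590 as slopes and 18 with the 2 arms alone, with 2 members as reported, 4 with DESeq2 and 7 as slopes. For labelled slopes, AZ-5576 against DMSO gave 419 as reported, 264 with DESeq2, 183 with the 2 arms alone and 15 over 0 to 4 h (1 member). JQ1 against DMSO gave 59 as reported, 91 with TMM, 37 with DESeq2 and 5 over 0 to 4 h (0 members), and AZ-5576 against JQ1 490 as reported and 25 over 0 to 4 h (1 member). TMM turned the labelled split of AZ-5576 against DMSO from 108 lower and 311 higher to 331 and 236, and that of AZ-5576 against JQ1 from 91 and 399 to 317 and 157.

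Leaving out 1 library moved genes called, in the same order of 6 comparisons, over 1 to 6866, 0 to 847, 7 to 3786, 26 to 764, 10 to 87 and 33 to 1315, and for the DMSO slope over 468 to 3992. Members called ranged over 1 to 7, 0 to 3, 2 to 7, 1 to 4, 0 to 1, 1 to 5 and 2 to 5. A lone time left in an arm is assumed to vary like the rest. Signs turned for values that did not pass as reported: TMM gave 0.038 for PIM2 in AZ-5576 and 0.062, 0.16 and 0.29 for SOCS1, PIM2 and PIM3 in JQ1, and PIM3 in JQ1 was 0.0011 as a slope. The labelled slope difference of PIM2 in JQ1 was −0.022 over 0 to 4 h. With 1 library left out, the JQ1 difference ran from −1.03 to 0.031 for CISH, −0.29 to 0.044 for PIM2 and −0.68 to 0.37 for PIM3, and that of labelled PIM2 from −0.029 to 0.022. The cause was not tested. Of 63 ratios, 0 left their counting interval with a pseudocount of 1 in place of 0.5. DESeq2 gave no adjusted p for SOCS3 in the labelled comparison of the inhibitors.

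With 1 library per condition, an odd library cannot be told apart from its condition. Under 20 reads per library lie behind total SOCS1 and SOCS3 in AZ-5576, total CISH in AZ-5576 at 8 h, all labelled SOCS1 values after 0 h, labelled SOCS3 in AZ-5576 and in DMSO at 8 h, and labelled CISH in AZ-5576 at 4 h and in every arm at 8 h.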
